A study of Mus musculus with 6 samples.

Results

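The mouse mitochondrial genome carries 37 genes, and all 37 were found among the 55487 genes of the count tables by their chromosome name, MT. They comprise 13 mRNAs, 2 rRNAs and 22 tRNAs. Their RNA was measured in primary microglia, the resident macrophages of the brain, cultured from the cortex of newborn pups on postnatal days 1 to 3. All pups carried floxed alleles of Nr1d1 (Nr1d1 fl/fl), the gene of the nuclear receptor REV-ERBα. The Cre+ group (n = 3 libraries) also carried CAG::CreERT2, a tamoxifen-inducible Cre recombinase under the ubiquitous CAG promoter, whereas the Cre- group (n = 3) lacked it. Both groups received 4-hydroxytamoxifen (4-OHT) at 1.5 μM for 2 days before harvest, so that the groups differed in the presence of the recombinase as well as in the deletion. The cells had been shaken off mixed glial cultures grown with GM-CSF. The labels do not say whether the 3 libraries of a group came from separate litters or pups, so the p-values measure the spread between these libraries, which may be technical in part.

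Mitochondrial DNA is transcribed from both of its strands as long precursors. The tRNAs that lie between the longer genes are cut out, which frees the mRNAs and rRNAs. The mRNAs encode core subunits of respiratory chain complexes I, III and IV and of ATP synthase, while every other protein of these machines, and of the machinery that copies, transcribes and translates mitochondrial DNA, is made from nuclear genes. REV-ERBα is a repressor of the circadian clock that has been linked to mitochondrial biogenesis in skeletal muscle, and microglia depend on respiration as well as glycolysis. The comparison asked whether the mitochondrial transcripts differed between Cre+ and Cre- microglia, together or gene by gene.

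Of the 17 mitochondrial genes abundant enough to be tested, 6 passed an adjusted p of 0.05, and all 6 were mRNAs higher in Cre+ cells: mt-Nd1, mt-Nd2 and mt-Nd3 of complex I, mt-Cytb of complex III, mt-Co3 of complex IV and mt-Atp6 of ATP synthase. Among all 11444 genes tested, 5.03% passed, 2.48% in the higher and 2.55% in the lower direction. The rises ran from 1.13-fold for mt-Cytb to 1.56-fold for mt-Nd3. mt-Co1, mt-Nd4, mt-Nd5 and mt-Nd6 had log2 fold changes between -0.15 and -0.03, none past the threshold. The median log2 fold change of the 13 mRNAs was 0.25, against 0.002 over all genes tested, and 9 of the 13 had groups that did not overlap, compared with 24.0% of all genes tested. Neither rRNA and neither of the 2 tRNAs tested passed.

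Reads counted on genes ran from 87545868 to 110909129 per library, and mitochondrial genes took 1.11 to 1.32% of them. Nr1d1 itself stood at 2.34, 1.20 and 1.64 counts per 1000000 counts (CPM) in Cre- and 1.00, 0.942 and 1.08 CPM in Cre+ libraries, counted over all its exons (log2 fold change -0.77 ± 0.25 SE, adjusted p = 0.095). Leaving out 1 library moved this from -0.50 without Cre- replicate 1 (adjusted p = 0.29) to -0.98 without Cre- replicate 2 (adjusted p = 0.034), where it passed. The microglial genes Tyrobp, Trem2 and Csf1r were abundant in every library, while Aif1 and Tmem119 stayed below 4 CPM and P2ry12 below the expression filter. Markers of astrocytes, the oligodendrocyte lineage, neurons, endothelial cells, and fibroblasts and mural cells summed to at most 44.5 CPM per list, and no listed marker was at 0 in all libraries. The endothelial sum was higher in Cre+ (23.5 to 26.7 against 20.03 to 21.25 CPM), nearly all of it from Flt1. Pecam1 of that list was lower in every Cre+ library (0.327, 0.225 and 0.257 against 0.447, 0.356 and 0.624 CPM). Tek, Cdh5 and Cldn5 overlapped, near the floor. The astrocyte sums overlapped (11.2 to 14.9 against 12.6 to 13.99 CPM), most of them from Aldh1l1. Below the filter, Slc1a2, Gja1 and Aqp4 were lower in every Cre+ library, and Slc1a3 and Gfap overlapped. The neuronal sum was lower (2.19 to 2.48 against 2.86 to 3.28 CPM), as was that of fibroblasts and mural cells (0.830 to 1.06 against 1.36 to 2.20 CPM). Their part in the mitochondrial values was not tested. Xist stayed at or below 0.045 CPM and 4 Y-linked genes summed to 93.6 to 105 CPM in the libraries of both groups. In bulk RNA, fewer cells of a type and less RNA per cell cannot be told apart.

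Complex I takes electrons from NADH, and 7 of its subunits are encoded by mitochondrial DNA. Levels below are in CPM of the TMM-normalized library size, and fold changes come from edgeR's quasi-likelihood test with Benjamini-Hochberg adjustment over all genes tested. mt-Nd1 (MT:2751-3707), the subunit at the junction of the membrane arm and the peripheral arm, stood at 883, 919 and 1007 CPM in Cre- and at 1331, 1377 and 1253 CPM in Cre+ libraries. Every Cre+ library lay above every Cre- library. The difference was 0.50 ± 0.05 (SE) on the log2 scale, a 1.41-fold rise (adjusted p = 2.2e-05), with the smallest p of the 17 genes. mt-Nd2 (MT:3914-4951), a proton-pumping subunit of the membrane arm, held 236, 235 and 273 CPM in Cre- and 320, 337 and 293 CPM in Cre+ libraries. These groups did not overlap either, and the log2 fold change was 0.35 ± 0.06 (adjusted p = 0.0034). mt-Nd3 (MT:9459-9806), a small subunit next to the quinone channel, had the steepest rise of the 13 mRNAs, from 37.4, 40.6 and 42.5 CPM in Cre- to 69.6, 68.7 and 49.4 CPM in Cre+ libraries. Cre+ replicate 3 was the lowest of its group but still above all Cre- libraries. The log2 fold change was 0.64 ± 0.10, or 1.56-fold (adjusted p = 0.0017).

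The other 4 complex I mRNAs did not pass. mt-Nd4 (MT:10167-11544), a proton-pumping subunit, held 596, 574 and 623 CPM in Cre- and 539, 571 and 510 CPM in Cre+ libraries. The Cre+ values all lay below the Cre- values, by a narrow margin, and the log2 fold change was -0.15 ± 0.05 (adjusted p = 0.10). mt-Nd5 (MT:11742-13565), the subunit at the far end of the membrane arm, was almost constant among Cre- libraries at 803, 801 and 805 CPM. Its Cre+ values of 772, 818 and 774 CPM lay on both sides of these (log2 fold change -0.03 ± 0.04, adjusted p = 0.78). mt-Nd4l (MT:9877-10173) was counted at 1.398, 1.144 and 1.159 CPM in Cre- and 1.583, 1.692 and 1.127 CPM in Cre+ libraries, from 104 to 174 reads each. Its groups overlapped, and the log2 fold change of 0.25 carried an error of 0.23 (adjusted p = 0.61).

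mt-Nd6 (MT:13552-14070) is the only mRNA encoded in the opposite orientation to the other 12. It held 158, 152 and 183 CPM in Cre- and 148, 159 and 143 CPM in Cre+ libraries. The groups overlapped through Cre+ replicate 2 (log2 fold change -0.13 ± 0.06, adjusted p = 0.29). Set against the summed counts of the other 12 mRNAs, mt-Nd6 came to 0.0197 ± 0.0012 (SD, n = 3) in Cre- and 0.0173 ± 0.0005 (SD, n = 3) in Cre+ libraries. This ratio was lower in all 3 Cre+ libraries, at 0.0168, 0.0177 and 0.0176 against 0.0195, 0.0187 and 0.0210. The geometric mean fell to 0.879 of the control value (exact 2-sided permutation test on log2 ratios, p = 0.1, the smallest p that 3 against 3 libraries allow). A fall was not particular to the mRNA of this orientation. As a mean share of all mitochondrial mRNA counts, mt-Nd6 went from 1.94% in Cre- to 1.70% in Cre+. In the same way mt-Co1 went from 41.7 to 36.0% and mt-Nd4 from 7.05 to 6.13%, with the groups apart for both. The mean share of mt-Nd5 was lower too, and that of every other mRNA was higher. mt-Nd6 and mt-Nd5 share 14 bases at their ends on opposite strands, and since the kit does not mark strand, reads of a gene and of antisense RNA across it could not be told apart.

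**Figure D1:**
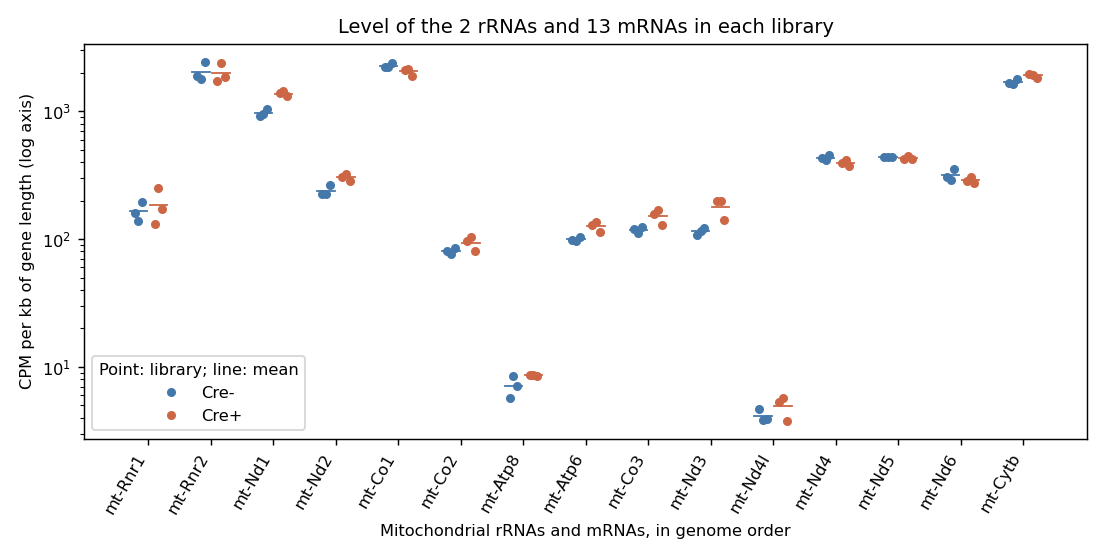
Level of the 2 mitochondrial rRNAs and 13 mRNAs in each library, as CPM per kb of gene length on a log axis, in genome order along the x axis. Points are libraries (Cre- blue, Cre+ orange, 3 each) and lines are group means. The Cre+ points of mt-Nd1 and mt-Nd3 lie above the Cre- points, those of mt-Co1 lie below, and those of mt-Rnr2 and mt-Nd5 overlap them.

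Cytochrome b, the only mitochondrially encoded subunit of complex III, carries electrons from ubiquinol within that complex. Its mRNA mt-Cytb (MT:14145-15288) held 1893, 1866 and 2051 CPM in Cre- and 2258, 2222 and 2086 CPM in Cre+ libraries. The highest Cre- library, replicate 3, came close to the lowest Cre+ library, also replicate 3, and the groups stayed apart. The log2 fold change was 0.18 ± 0.04 (adjusted p = 0.033), the smallest rise among the 6 calls. The call was lost without Cre- replicate 1 (adjusted p = 0.12), Cre- replicate 2 (0.14), Cre+ replicate 1 (0.12) or Cre+ replicate 2 (0.10), and with scaling to the mitochondrial mRNA total (0.33). Over all settings its adjusted p ran from 8.6e-05 to 0.33.

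Complex IV, cytochrome c oxidase, passes electrons to oxygen, and 3 of its subunits are encoded by mitochondrial DNA. mt-Co1 (MT:5328-6872), the catalytic subunit, was the most abundant mitochondrial mRNA, at 3464, 3459 and 3662 CPM in Cre- and 3266, 3322 and 2947 CPM in Cre+ libraries. All Cre+ values lay below the Cre- values, and the log2 fold change was -0.15 ± 0.05 (adjusted p = 0.071). DESeq2 called it as lower (adjusted p = 0.042), and the adjusted p ran from 0.042 to 0.50 over all settings. mt-Co2 (MT:7013-7696), which takes electrons from cytochrome c, held 55.2, 52.1 and 58.1 CPM in Cre- and 66.1, 70.5 and 55.1 CPM in Cre+ libraries. Cre+ replicate 3 fell among the Cre- values, and the log2 fold change was 0.21 ± 0.08 (adjusted p = 0.15). Without that library the gene passed at 0.31 (adjusted p = 0.026), and without Cre+ replicate 2 it stood at 0.14 (adjusted p = 0.42). mt-Co3 (MT:8607-9390), a core subunit without redox centres, rose from 93.3, 87.7 and 97.3 CPM in Cre- to 124, 132 and 101 CPM in Cre+ libraries. The groups did not overlap (log2 fold change 0.36 ± 0.08, adjusted p = 0.014). This call was lost without Cre- replicate 2 (adjusted p = 0.059), Cre+ replicate 1 (0.051) or Cre+ replicate 2 (0.070), and with scaling to the mitochondrial mRNA total (0.054). Its adjusted p ran from 8.1e-08 to 0.070 over all settings.

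ATP synthase uses the proton gradient to make ATP, and mt-Atp8 and mt-Atp6 encode 2 of its membrane subunits from reading frames that overlap. The mt-Atp8 gene is printed here to show this overlap: its last 43 bases, in capitals, are also the first 43 of mt-Atp6. What the overlap did to the counts was not tested. The sequence is the GENCODE M21 transcript on GRCm38, plus strand, MT:7766-7969, 5′ to 3′.
mt-Atp8: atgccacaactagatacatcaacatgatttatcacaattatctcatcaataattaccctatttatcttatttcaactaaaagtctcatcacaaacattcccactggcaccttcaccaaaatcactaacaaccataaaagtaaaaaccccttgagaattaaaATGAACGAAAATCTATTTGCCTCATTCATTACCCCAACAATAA
mt-Atp6 (MT:7927-8607), the proton-channel subunit, held 67.6, 65.5 and 70.6 CPM in Cre- and 88.5, 92.1 and 77.4 CPM in Cre+ libraries. All Cre+ libraries were above all Cre- libraries, and the log2 fold change was 0.34 ± 0.06 (adjusted p = 0.0059). mt-Atp8 was counted at 1.16, 1.73 and 1.45 CPM in Cre- and 1.77, 1.76 and 1.74 CPM in Cre+ libraries, on 101 to 195 reads. The groups were just apart, by less than the spread of the Cre- libraries, and the log2 fold change was 0.28 ± 0.21 (adjusted p = 0.52).

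**Figure D2:**
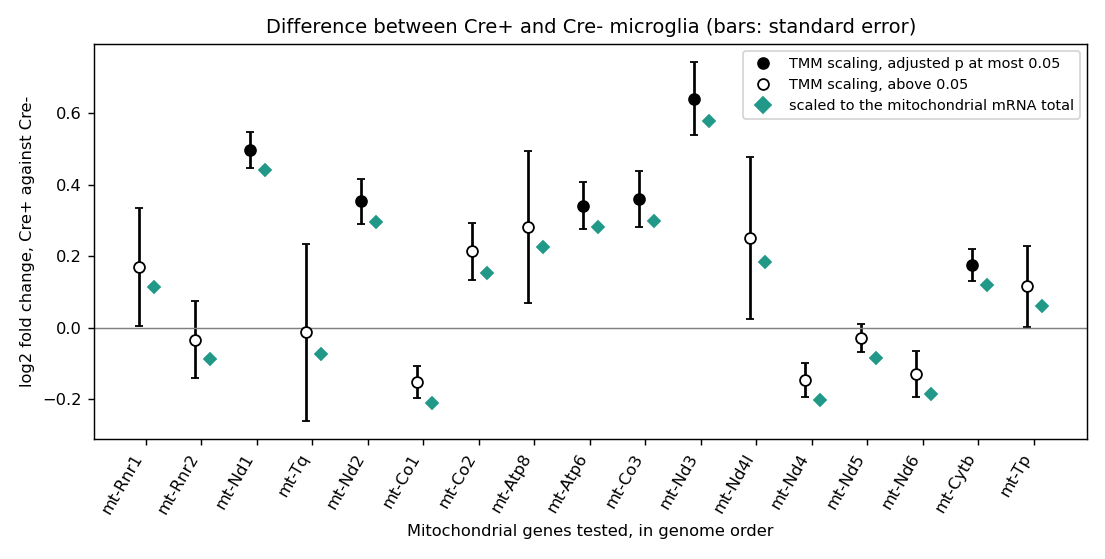
Log2 fold change (y axis) of each of the 17 mitochondrial genes tested (x axis, genome order), Cre+ against Cre-, 3 libraries each. Circles with bars are estimates and standard errors with TMM scaling, filled where the adjusted p was at most 0.05, and diamonds are estimates scaled to the total of the 13 mitochondrial mRNAs. The 6 filled points run from 0.18 for mt-Cytb to 0.64 for mt-Nd3, and scaling to the mitochondrial total lowers every estimate, to 0.12 and 0.58 for these 2 genes.

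Because all mitochondrial RNAs of a strand begin as shared precursors, the size and the composition of the mRNA pool were compared next. The composition within the pool does not depend on scaling to the nuclear genes, whereas the pool's share of all counts does. Reads counted on nuclear copies of these genes, described further on, are not part of the pool. Counts on the 13 mRNAs came to 0.826, 0.814 and 0.864% of all counts in Cre- and 0.891, 0.914 and 0.820% in Cre+ libraries. Cre+ replicate 3 lay within the Cre- range, and the mean share was 1.05 times that of Cre- (0.835 ± 0.026% against 0.875 ± 0.049%, SD, n = 3; exact 2-sided permutation test, p = 0.3). Each library's 95% Wilson interval was at most 0.00385 percentage points wide, for counting error only. Within this pool, mt-Co1 took 41.7 ± 0.3% of the mRNA counts in Cre- and 36.0 ± 0.4% in Cre+ libraries. mt-Nd1 took 11.04 ± 0.36 and 14.98 ± 0.15%, and mt-Cytb 22.9 ± 0.2 and 24.8 ± 0.5% (SD, n = 3 per group). For each of these 3 genes the groups were apart. mt-Nd5, at 9.49 ± 0.36 and 8.95 ± 0.37%, overlapped through Cre+ replicate 3.

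The ratio of mt-Nd1 to mt-Co1 counts put the contrast in its simplest form, as 0.255, 0.266 and 0.275 in Cre- and 0.408, 0.414 and 0.425 in Cre+ libraries. The spread within either group was far smaller than the gap between them. mt-Nd3 over mt-Nd4 was 0.0628, 0.0709 and 0.0682 in Cre- and 0.129, 0.120 and 0.0969 in Cre+ libraries. mt-Cytb over mt-Nd5 was 2.36, 2.33 and 2.55 against 2.93, 2.72 and 2.69. These pairs were chosen after the values were seen and are given as a description, without a test.

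**Figure D3:**
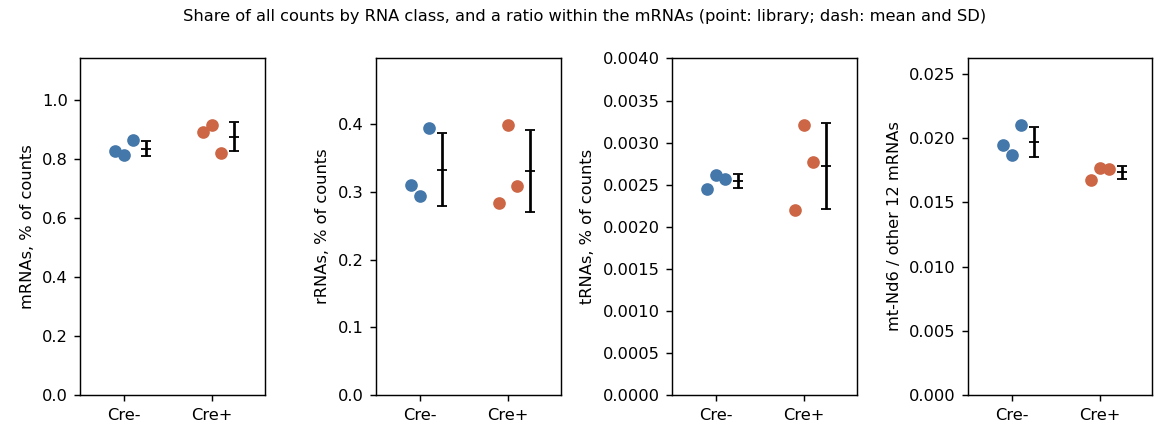
Percent of all counts on mitochondrial mRNAs, rRNAs and tRNAs (3 panels, y axis in percent), and the ratio of mt-Nd6 to the other 12 mRNAs (last panel, y axis a ratio), by group on the x axis. Points are libraries, dashes with bars the mean and SD of 3. The groups overlap in the 3 shares, and in the ratio all Cre+ libraries lie below the Cre- libraries, at 0.0168 to 0.0177 against 0.0187 to 0.0210.

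Levels were also set per kb of gene length, to adjust for length when genes are compared. The library kit primes on poly(A), and how well it captured the rRNAs beside the mRNAs was not tested. The Cre- order began with mt-Co1 at 2284 ± 75 and mt-Rnr2 at 2038 ± 349 CPM per kb (SD, n = 3). Their libraries overlapped. mt-Cytb followed at 1693 ± 87 and mt-Nd1 at 978 ± 67 CPM per kb. mt-Nd5 (440 ± 1) and mt-Nd4 (433 ± 18 CPM per kb) did not differ beyond their spread. Then came mt-Nd6 at 317 ± 32, mt-Nd2 at 239 ± 21 and mt-Rnr1 at 165 ± 30 CPM per kb. mt-Co3 and mt-Nd3 overlapped at 118 ± 6 and 115 ± 7 CPM per kb, above mt-Atp6 at 99.7 ± 3.8 and mt-Co2 at 80.6 ± 4.4 CPM per kb. mt-Atp8 (7.08 ± 1.39) and mt-Nd4l (4.15 ± 0.48 CPM per kb) were lowest as counted. They are also the shortest mRNAs, at 204 and 297 bases, and share 43 and 7 bases with mt-Atp6 and mt-Nd4. How many reads across these overlaps were missing from their counts was not tested, so their levels are uncertain. As described further on, about as many reads lay on a chromosome 1 copy of mt-Co3, mt-Atp6, mt-Co2 and mt-Nd4l as on the gene itself, and adding the copies changed this part of the order. With them, mt-Co3 reached 225 ± 10, mt-Atp6 190 ± 8 and mt-Co2 169 ± 10 CPM per kb, all above mt-Nd3 at 120 ± 8 CPM per kb, and mt-Nd4l reached 8.60 ± 0.66 CPM per kb, above the mean of mt-Atp8. The mRNAs that passed the test were therefore found both near the top of this order (mt-Cytb, mt-Nd1) and further down (mt-Nd2, mt-Co3, mt-Nd3, mt-Atp6).

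Across the 13 mRNAs, log2 fold changes were negatively correlated with gene length (Pearson's r = -0.55, Spearman's rho = -0.46). mt-Nd5, mt-Co1 and mt-Nd4, the longest, were among the 4 below 0, and the fourth, mt-Nd6, has only 519 bases. Correlations with start position (r = -0.39), A content (0.37) and GC content (-0.17) were weaker. All are descriptions across genes that share libraries, strands and precursors. Over the 11427 nuclear genes tested, the log2 fold change hardly followed log2 length (r = 0.046), and the medians of 4 length classes ran from -0.014 to 0.020.

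Several mitochondrial mRNAs end on a stop codon that is completed by the poly(A) tail. As annotated, mt-Co3 and mt-Cytb end directly before the next gene, while mt-Nd4 ends at MT:11544 and the next gene, mt-Th, starts at MT:11546. The last 30 annotated bases of the 3 mRNAs whose length leaves 1 base over after the final full codon are printed below. Those of mt-Nd1, where the annotation holds a whole stop codon, are printed beside them. The annotated mt-Nd1 gene shares its last 2 bases with mt-Ti (MT:3706-3774), so the end of its mature mRNA cannot be read from the annotation. The same holds for mt-Nd2, not printed, which also ends on TAG and shares its last 2 bases with mt-Tw (MT:4950-5016). Capitals mark the annotated stop codon, whole or begun. The bases are from GENCODE M21 transcripts on the plus strand of GRCm38, at MT:9361-9390 for mt-Co3, MT:11515-11544 for mt-Nd4, MT:15259-15288 for mt-Cytb and MT:3678-3707 for mt-Nd1.
mt-Co3: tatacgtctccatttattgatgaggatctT
mt-Nd4: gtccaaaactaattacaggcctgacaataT
mt-Cytb: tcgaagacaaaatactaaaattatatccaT
mt-Nd1: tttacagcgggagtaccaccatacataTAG
Of the 3 with an incomplete stop codon in the annotation, mt-Co3 (log2 fold change 0.36) and mt-Cytb (0.18) were called as higher. mt-Nd4 (-0.15) was not called.

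Part of the mitochondrial genome is also present as a copy in nuclear DNA, and this bears on the counts of 7 mRNAs. On chromosome 1 of GRCm38, between 24611535 and 24616197 on the minus strand, 7 annotated genes match mt-Co1, mt-Co2, mt-Atp6, mt-Co3, mt-Nd3, mt-Nd4l and mt-Nd4. Gm28661 is identical to mt-Co2 over 681 bases, Gm10925 to mt-Atp6 over 678, Gm28437 to mt-Co3 over 783 and Gm10222 to mt-Nd4l over 294, nearly the whole of each gene. Gm28439 is identical to the first 876 of the 1378 bases of mt-Nd4. Gm28438 matches mt-Nd3 and Gm29216 the 3′ part of mt-Co1 with a single substitution each, T3C and A1066T, with positions counted from 1 at the first base of the mitochondrial gene and the mitochondrial base given first. The stretches around both substitutions are printed with that base in capitals, because it is the only base that differs within the matching stretch of each pair. They come from GENCODE M21 transcripts on GRCm38, at MT:9459-9498 and MT:6390-6430 (plus strand) and chr1:24613080-24613119 and chr1:24616148-24616188 (minus strand).
mt-Nd3: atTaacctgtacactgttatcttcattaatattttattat
Gm28438: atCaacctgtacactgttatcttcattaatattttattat
mt-Co1: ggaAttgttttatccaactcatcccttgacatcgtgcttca
Gm29216: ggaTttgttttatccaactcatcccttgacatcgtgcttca

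The copies were counted in every library. Gm28661 took 51.7 to 52.7% of the reads on itself and mt-Co2 together, Gm10925 took 47.2 to 48.1% of its pair with mt-Atp6, and Gm28437 took 46.4 to 48.8% of its pair with mt-Co3. For Gm10222 and mt-Nd4l the share was 45.7 to 55.3%, from few reads. Reads on these 4 identical pairs were thus divided almost evenly in each library, and the level of each of the 4 mitochondrial genes is uncertain. The share was 3.4 to 4.7% for Gm28438 with mt-Nd3, 3.3 to 3.9% for Gm29216 with mt-Co1, and 1.6 to 2.0% for Gm28439 with mt-Nd4. The 95% Wilson interval of a library's share was at most 13.2 percentage points wide for mt-Nd4l and at most 1.95 for the other pairs.

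Of the 7 copies, 3 were called, against 5.03% of all genes tested, each in the direction of the estimate of its mitochondrial gene. Gm10925 and Gm28437 are identical to their genes over nearly the whole length. Their agreement with these genes is therefore not a second observation. Gm10925 rose by 0.35 ± 0.06 on the log2 scale (adjusted p = 0.0048), where mt-Atp6 rose by 0.34. Gm28437 rose by 0.39 ± 0.08 (adjusted p = 0.015), where mt-Co3 rose by 0.36. Gm29216 fell by 0.27 ± 0.07 (adjusted p = 0.043), the same direction as mt-Co1. It differs from mt-Co1 by 1 base over 483, so this is not taken as a second observation either. Gm28661 (0.22), Gm28438 (0.72), Gm10222 (0.26) and Gm28439 (-0.03) did not pass. With each copy's counts added to its gene, an alternative chosen after the data were seen, the same 6 mitochondrial genes were called, with mt-Atp6 at 0.35, mt-Co3 at 0.37 and mt-Nd3 at 0.64. The genes without a chromosome 1 copy among the calls are mt-Nd1, mt-Nd2 and mt-Cytb. No annotated copy of mt-Atp8 met the limits of the search, and sequence outside annotated transcripts was not searched. Less similar copies were found on chromosomes 2 and 13 for mt-Co1 (Gm13340), mt-Co2 (Gm13341), mt-Nd2 (Gm13339) and mt-Nd5 (Gm4076), at 95.2 to 97.6% identity. They held 2.15 to 85.9 CPM on average, and none was called.

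**Figure D4:**
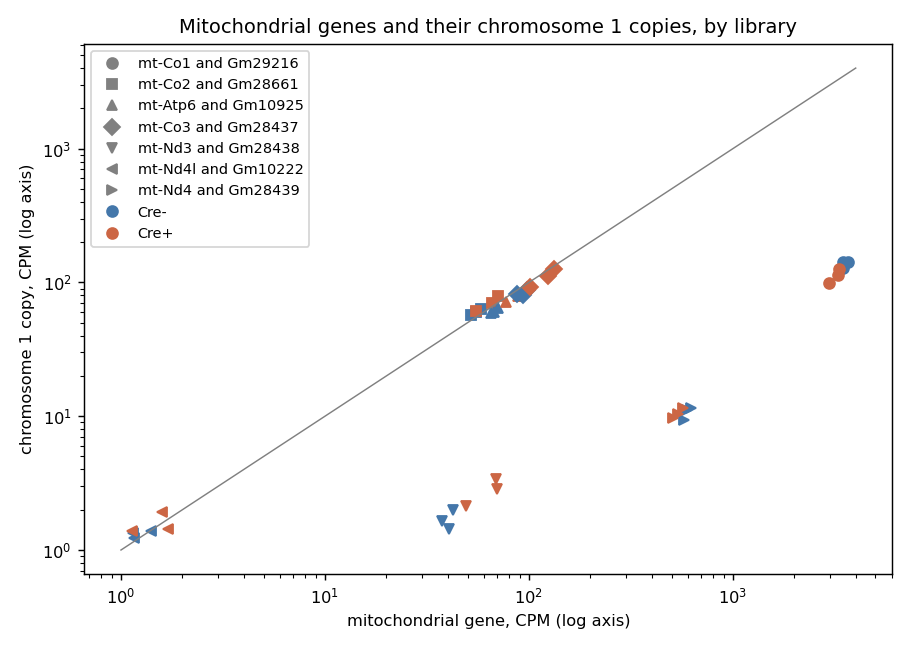
Level of 7 mitochondrial genes (x axis, CPM, log scale) against that of their chromosome 1 copies (y axis, CPM, log scale) in each library, with symbols for pairs and colours for groups. The line marks equal levels. The pairs of mt-Co2, mt-Atp6, mt-Co3 and mt-Nd4l lie on it, whereas the copies of mt-Co1, mt-Nd3 and mt-Nd4 lie far below, at 1.6 to 4.7% of the reads of their pair.

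The 2 rRNAs form the small and the large subunit of the mitochondrial ribosome. mt-Rnr1 (12S, MT:70-1024) held 152, 132 and 188 CPM in Cre- and 126, 241 and 165 CPM in Cre+ libraries. The highest and the lowest library were both Cre+ (log2 fold change 0.17 ± 0.17, adjusted p = 0.64). Without Cre+ replicate 2 the estimate turned to -0.12, so that library decided its direction. mt-Rnr2 (16S, MT:1094-2675) held 2966, 2847 and 3857 CPM in Cre- and 2735, 3758 and 2958 CPM in Cre+ libraries. Cre- replicate 3 and Cre+ replicate 2 stood above the rest, and the groups overlapped (log2 fold change -0.03 ± 0.11, adjusted p = 0.92). Together the rRNAs took 0.333 ± 0.053% of counts in Cre- and 0.330 ± 0.060% in Cre+ libraries (SD, n = 3; ratio of means 0.992, exact 2-sided permutation test, p = 0.9). The same 2 libraries held the highest shares, 0.394 and 0.399%, against 0.284 to 0.311% in the other 4, and the 95% Wilson intervals were at most 0.00256 percentage points wide. The rRNA counts were 0.398 ± 0.051 of the mRNA counts in Cre- and 0.377 ± 0.059 in Cre+ libraries (SD, n = 3). The geometric mean of Cre+ was 0.945 of that of Cre- (exact 2-sided permutation test on log2 ratios, p = 0.7). This is a ratio of reads from a kit that primes on poly(A), and need not be that of the RNAs in the cells. The rRNAs thus varied more between libraries of a group than most of the mRNAs, and a difference between groups was not detected within that spread.

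The 22 tRNAs, which carry amino acids to the mitochondrial ribosome, were nearly absent from these libraries. The library kit primes on poly(A), and mature tRNAs end in CCA. Of the 22, 20 were below the expression filter, with at most 80 reads in any library, and 14 of them never exceeded 10 reads. mt-Ti, the isoleucine tRNA, had 0 counts in all 6 libraries, which allows up to 0.027 to 0.034 CPM per library (3 counts, counting error only). The proline and glutamine tRNAs, mt-Tp and mt-Tq, held 93.0 to 95.9% of all tRNA counts (95% Wilson intervals at most 2.03 percentage points wide). Their sequences are printed because they are the only tRNAs that could be tested. Both are read from the minus strand of GRCm38, from GENCODE M21 transcripts, mt-Tp at MT:15356-15422 and mt-Tq at MT:3772-3842.
mt-Tp: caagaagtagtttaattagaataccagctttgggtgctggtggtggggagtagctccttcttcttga
mt-Tq: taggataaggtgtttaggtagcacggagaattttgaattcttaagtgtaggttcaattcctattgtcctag
mt-Tp, beside the control region, held 20.8, 21.3 and 20.2 CPM in Cre- and 17.5, 25.7 and 24.3 CPM in Cre+ libraries. The Cre- values were tight and the Cre+ values lay on both sides of them (log2 fold change 0.12 ± 0.11, adjusted p = 0.64). mt-Tq held 2.48, 3.58 and 4.55 CPM in Cre- and 3.03, 4.92 and 2.58 CPM in Cre+ libraries, with overlapping groups (-0.01 ± 0.25, adjusted p = 0.99).

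By strand, the 14 tRNAs annotated on the plus strand, like 12 of the mRNAs, summed to 16 to 29 reads per library. The 8 on the minus strand, like mt-Nd6, summed to 2117 to 2977. This imbalance was present in both groups. Since strand is not marked, reads on a minus-strand tRNA may also stem from plus-strand RNA across it, which was not tested. All tRNA counts together were 0.00254 ± 0.00008% of the total in Cre- and 0.00272 ± 0.00051% in Cre+ libraries (SD, n = 3; ratio 1.07, exact 2-sided permutation test, p = 0.7). The Cre+ libraries held both the lowest share, 0.00219%, and the highest, 0.00321% (95% Wilson intervals at most 0.00023 percentage points wide).

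Nuclear genes that serve the mitochondrial genome were set beside these values, in 7 lists that together held 257 tested genes. Of these, 1 passed, which was lower in Cre+, and the median log2 fold change was 0.004. Of all genes tested, 5.03% were called and 19.1% reached an unadjusted p under 0.05, the backgrounds for the counts that follow. With edgeR, none of the 18 tested genes of mitochondrial DNA replication and maintenance was called (1 at an unadjusted p under 0.05), nor any of the 8 transcription genes (0 at an unadjusted p under 0.05). The 3 smallest p of the first list belonged to the nuclease Exog (log2 fold change 0.27, adjusted p = 0.25), the ribonuclease Rnaseh1 (0.18, adjusted p = 0.29) and Polg, the catalytic subunit of the mitochondrial DNA polymerase (-0.25, adjusted p = 0.33). Tfam, which packages mitochondrial DNA and starts its transcription, stood at 17.6 ± 1.3 and 16.7 ± 0.9 CPM (SD, n = 3; log2 fold change -0.08 ± 0.09, adjusted p = 0.69). Polrmt, the mitochondrial RNA polymerase, stood at 9.29 ± 1.03 and 7.72 ± 1.86 CPM (-0.27 ± 0.16, adjusted p = 0.40). Tfb2m, its partner in initiation, was at 13.2 ± 1.2 and 14.6 ± 0.6 CPM (0.14 ± 0.10, adjusted p = 0.47). The smallest p of the transcription list was that of Mterf1a, a termination factor (0.39 ± 0.19, adjusted p = 0.28). No gene of either list was called, but at 5.03% of all genes few calls would fall in lists of 18 and 8 genes.

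Among the 35 tested genes of mitochondrial RNA processing and stability, 0 were called in the main edgeR fit. An unadjusted p under 0.05 was reached by 7, a share close to that of all genes. Lrpprc, which stabilises mitochondrial mRNAs, was at 10.2 ± 1.6 and 9.95 ± 0.96 CPM (adjusted p = 0.94). The 3 smallest p belonged to Mtpap, the mitochondrial poly(A) polymerase (log2 fold change 0.29, adjusted p = 0.11), Trmt5, a tRNA methyltransferase (0.39, adjusted p = 0.13), and Nsun4, an rRNA methyltransferase (0.30, adjusted p = 0.15). Of the 35 translation factors and tRNA synthetases, Lars2, the mitochondrial leucyl-tRNA synthetase, was the 1 call. It held 2045, 2068 and 2844 CPM in Cre- and 1962, 1783 and 1712 CPM in Cre+ libraries. Cre- replicate 3 stood far above the others, and the log2 fold change was -0.35 ± 0.09 (adjusted p = 0.043). Without that library it was -0.18 (adjusted p = 0.088), and the call was also lost without Cre+ replicate 2 (0.13) or Cre+ replicate 3 (0.17), with filterByExpr (0.078) and in DESeq2 (0.22). Its adjusted p ran from 1.5e-05 to 0.22 over all settings. The next highest gene of that list, Kars, averaged 71.03 CPM, and what the reads on Lars2 stem from was not tested. The next smallest p of the list were those of Cars2, the mitochondrial cysteinyl-tRNA synthetase (log2 fold change -0.46, adjusted p = 0.33), and Mtif2, a translation initiation factor (0.14, adjusted p = 0.33).

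In the main edgeR fit, none of the 77 mitochondrial ribosomal proteins was called (9 at an unadjusted p under 0.05). The same held for the 75 nuclear-encoded respiratory chain subunits (11 at an unadjusted p under 0.05). Their medians were 0.004 and -0.01. The smallest p among the ribosomal proteins belonged to Mrps15 (log2 fold change -0.20, adjusted p = 0.077), Mrps11 (0.24, adjusted p = 0.15) and Mrpl42 (0.14, adjusted p = 0.16). Among the respiratory chain subunits they belonged to Cyc1 of complex III (-0.17, adjusted p = 0.054), Ndufa4 of complex IV (0.22, adjusted p = 0.059) and Cox6a1 of complex IV (-0.16, adjusted p = 0.090). DESeq2, which called 7.76% of all genes, called 1 of the ribosomal proteins, Mrps15, and 4 of the subunits, Cyc1, Ndufa4, Cox6a1 and Cox5a, the last named because of this call. limma, which called 4.95% of all genes, called none in either list. Other edgeR settings also called Ndufa4, such as scaling to library totals (adjusted p = 0.048). No gene among the 10 tested regulators of mitochondrial biogenesis was called with edgeR (1 at an unadjusted p under 0.05), and the 3 smallest p were those of the corepressor Ncor1 (log2 fold change 0.15, adjusted p = 0.23) and the transcription factors Yy1 (-0.21, adjusted p = 0.43) and Gabpa (-0.11, adjusted p = 0.56). Ppargc1a, the coactivator PGC-1α, was below the filter and not tested, at 0.470, 0.539 and 0.334 CPM in Cre- and 0.164, 0.118 and 0.148 CPM in Cre+ libraries.

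**Figure D5:**
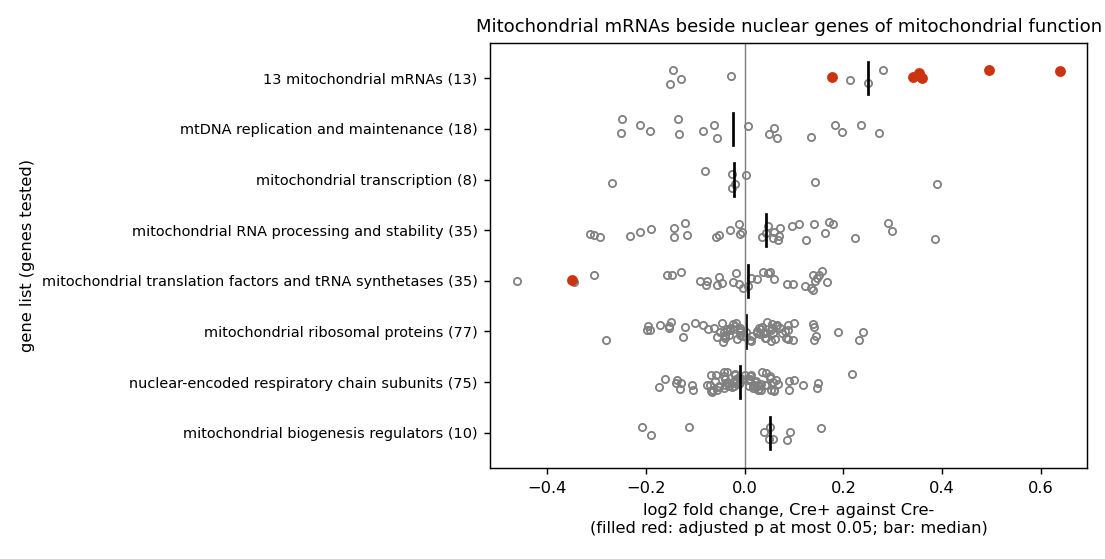
Log2 fold change, Cre+ against Cre- (x axis), of each tested gene (points) in the 13 mitochondrial mRNAs and in 7 lists of nuclear genes (y axis, with the number of genes tested), 3 libraries per group. Filled red points passed an adjusted p of 0.05 and black bars are medians. The mitochondrial mRNAs have 6 filled points and a median of 0.25, and the nuclear lists have 1, Lars2 at -0.35.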

How the data were processed

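RNA of 6 microglial cultures was reverse-transcribed by the authors with the SMARTer Ultra Low kit and sequenced as paired reads. The deposited counts are raw whole-number read counts for each Ensembl gene. The authors aligned to GRCm38 with STAR and counted with featureCounts. Per the labels the versions were STAR 2.7.9a and featureCounts 2.0.3, while the methods of the paper name older ones. The settings for strand and for reads with several matches are not given in the sources used here. The deposited CPM are counts per 1000000 of the library total and the deposited FPKM are these per kb of gene length. Both were only read to check their unit.

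Genes were matched to GENCODE M21 by identifier. Nuclear genes of the rRNA biotype were removed, the 2 mitochondrial rRNAs were kept, and a gene had to exceed 1 CPM in no fewer than 4 libraries to enter the quasi-likelihood test of edgeR 4.0.16 (R 4.3.3, TMM, no covariates, Benjamini-Hochberg over 11444 genes, threshold 0.05). Counts per library ran from 87545868 to 110909129. Shares and ratios used exact 2-sided permutation tests over libraries. Copies were sought with blastn 2.17.0 among annotated transcripts (at least 95% identity over 100 bases). Alternatives were other scalings, filters, tools (limma 3.58.1, DESeq2 1.42.0), other thresholds, a replicate block and omitting single libraries. Steps were tested on simulated data.

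All 37 genes are accounted for. Each mRNA and rRNA was named, and each tRNA of at least 1 CPM. Of the nuclear lists, 5 genes were named whatever their values, plus the 3 with the smallest p in each list, and Nr1d1. The members and lists were chosen with earlier results of these data known. A gene of the microglial marker list is not reported here.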

Additional observations from a re-analysis of the deposited data

How the results depend on the processing

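mt-Nd1, mt-Nd2, mt-Nd3 and mt-Atp6 were called as higher in every setting at a threshold of 0.05, with log2 fold changes of 0.44 to 0.57, 0.30 to 0.43, 0.56 to 0.78 and 0.28 to 0.42. The number of mitochondrial genes called ran from 4 to 8, with 4 when scaled to the mitochondrial mRNA total (mt-Co3 and mt-Cytb lost), 7 in DESeq2 (mt-Co1 gained, as lower) and 8 without a filter (mt-Rnr1 and mt-Co2 gained). Leaving out 1 library gave 4 to 7. Of all genes, 576 were called, 1525 without a filter, 888 in DESeq2, 225 and 930 at thresholds of 0.01 and 0.1, and 318 to 436 without 1 library. Scaling to the mitochondrial mRNA total moved the split of higher and lower calls from 284 and 292 to 53 and 211, with a median over all genes of -0.05. Without a filter that median was -0.20.

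Genes called in the nuclear lists numbered 0 at a threshold of 0.01, 6 at 0.1, 2 with library totals, 9 without a filter (Ndufa4, Mrps11, Mrpl42, Mtpap, Nsun4, Trmt5, Lars2, Sdha and Sdhc), 5 in DESeq2 (Cyc1, Ndufa4, Cox6a1, Cox5a and Mrps15), 0 with the replicate block and 0 to 3 without 1 library. With edgeR’s filterByExpr the 1 call was Ndufa4 (adjusted p = 0.035) in place of Lars2. Signs turned for genes near 0. Without a filter these were mt-Rnr2 (0.0444), mt-Tq (0.0601), mt-Nd5 (0.0509) and Lrpprc (0.0511), and with edgeR's filterByExpr mt-Rnr2 (0.0126), mt-Tq (0.0305), mt-Nd5 (0.0187) and Lrpprc (0.0174). Without 1 library, mt-Rnr1 ran from -0.12 to 0.36, mt-Rnr2 from -0.18 to 0.11, mt-Tq from -0.33 to 0.21 and Lrpprc from -0.133 to 0.0904. The ratio of Cre+ to Cre- shares then ran from 0.890 to 1.09 for rRNAs and 0.975 to 1.17 for tRNAs. For the rRNA to mRNA ratio, the geometric mean of Cre+ over that of Cre- ran from 0.875 to 1.02. The causes were not tested.

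The labels do not say whether the numbers in the sample titles mark pairs. Same-numbered libraries correlated at 0.013, -0.022 and -0.045 in their deviations from the group means, so no pairing was seen in the counts. With the replicate block, 5 mitochondrial genes were called (mt-Cytb lost, adjusted p = 0.073) and 419 of all genes, and Lars2 was lost (adjusted p = 0.0503). The 3 shares and 2 ratios kept their direction under the block.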
